A study of Homo sapiens with 12 samples.

Results

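BON-1 is an established cell line from a human pancreatic neuroendocrine tumor (pNET). BON-1/tet-MUC1shRNA cells carry an inducible hairpin RNA (shRNA) that targets MUC1 once doxycycline (DOX) is added, and they were cultured with vehicle (DMSO) or with 500 ng/mL DOX for 7 days. The comparison described here holds the 6 BON-1 libraries of the 12 libraries in the series, 3 with vehicle and 3 with DOX, and all 28008 genes of their count table, of which 14625 had enough counts to be tested. The libraries were chosen by their labels alone, without any measured value. In the other 6 libraries QGP-1, a second pNET line, carried the same hairpin.

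Both BON-1 groups had the same genotype, a MUC1shRNA in the doxycycline-inducible pLKO-tet-puro vector, so the vehicle libraries also hold the uninduced hairpin. Triplicate cultures are stated for each group, and no control hairpin with DOX and no other MUC1 hairpin was analysed here. A response to the loss of MUC1, an off-target effect of the hairpin and a response to DOX itself cannot be told apart from these libraries. All levels are bulk values, so fewer cells expressing a gene and less RNA per cell cannot be told apart either.

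MUC1 is a transmembrane mucin whose MUC1-C subunit carries the cytoplasmic domain and signals to the nucleus in carcinoma cells. Pancreatic neuroendocrine cells store amines and peptide hormones in dense-core granules packed with chromogranins and secretogranins, and BON-1 is known for making serotonin from tryptophan. Interferons act through transcription factors, STAT2 and IRF9 among them, that bind interferon-stimulated response elements before the genes of antiviral proteins and, in part, before those of MHC class I antigen presentation.

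Library totals ran from 15981954 to 28484324 counts, between 17278 and 18126 genes had a count in each library, and TMM scaling factors lay between 0.976 and 1.04. On the 6 libraries the first principal component held 74.1% of the variance and separated vehicle from DOX, and the second, with 9.86%, set DOX replicate 3 apart from the other DOX libraries. The defining markers CHGA, CHGB, SYP, INSM1, SCG2 and SNAP25 of neuroendocrine cells, TPH1, SLC18A1 and NTS, and EPCAM, KRT8, KRT18 and CDH1 of epithelium had counts in all 6 libraries.

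MUC1, the target of the hairpin, lies on chromosome 1 from 155185824 to 155192915 (GRCh38.p14, RefSeq). Its level was 20.6, 20.7 and 15.6 CPM (reads relative to the library total, scaled by TMM) in the vehicle libraries and 1.48, 2.65 and 3.97 CPM in the DOX libraries. The lowest vehicle library lay above the highest DOX library, and MUC1 was downregulated 6.90-fold (log2 fold change -2.79 ± 0.22, SE; adjusted p = 6.51e-11, edgeR quasi-likelihood test). Between 23 and 78 MUC1 reads remained in a DOX library, so the level with DOX is limited by counting error as well.

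Across the 14625 genes tested, 2677 were downregulated and 2488 were upregulated with DOX at an adjusted p below 0.05. These are 18.3% and 17.0% of the genes tested, 35.3% in all, and any count of called genes below is to be read against those shares. Many of the changes were small: 1258 of the downregulated and 1429 of the upregulated genes moved by less than 0.5 on the log2 scale, and the median of all genes was -0.01. With a log2 fold change beyond 1 required as well, 447 genes (3.06%) were lower and 272 (1.86%) were higher.

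**Figure D1:**
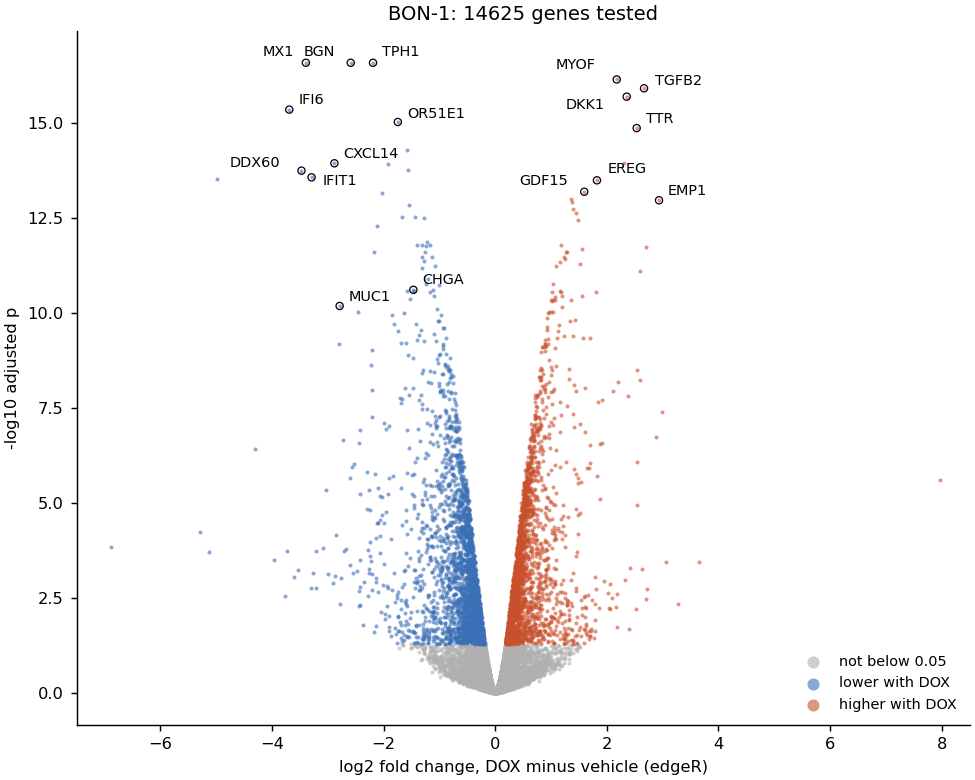
Log2 fold change (x axis, DOX minus vehicle) against -log10 of the adjusted p (y axis) for each of the 14625 genes tested in BON-1, 1 point a gene; blue points passed an adjusted p of 0.05 lower with DOX and red points higher. MX1, BGN and TPH1 stand highest on the left and MYOF, TGFB2 and DKK1 highest on the right, while MUC1 at -2.79 lies lower on the y axis than these.

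The leading genes were taken as those whose log2 CPM averaged 3 or more, with no overlap between the groups and either the largest fold changes or the lowest p. Of the 10191 genes at that level, 2019 (19.8%) were called lower and 2040 called higher without overlap. MUC1 and the leading genes made 31 genes, 16 lower and 15 higher with DOX, and all 31 were called in each of 6 fits that left out 1 library. Those fits reuse the libraries that chose the leading genes, so they are not independent support for them. Genes of the interferon response and of hormone and serotonin synthesis were among the lower ones, and secreted growth factors and membrane proteins among the higher ones.

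**Figure D2:**
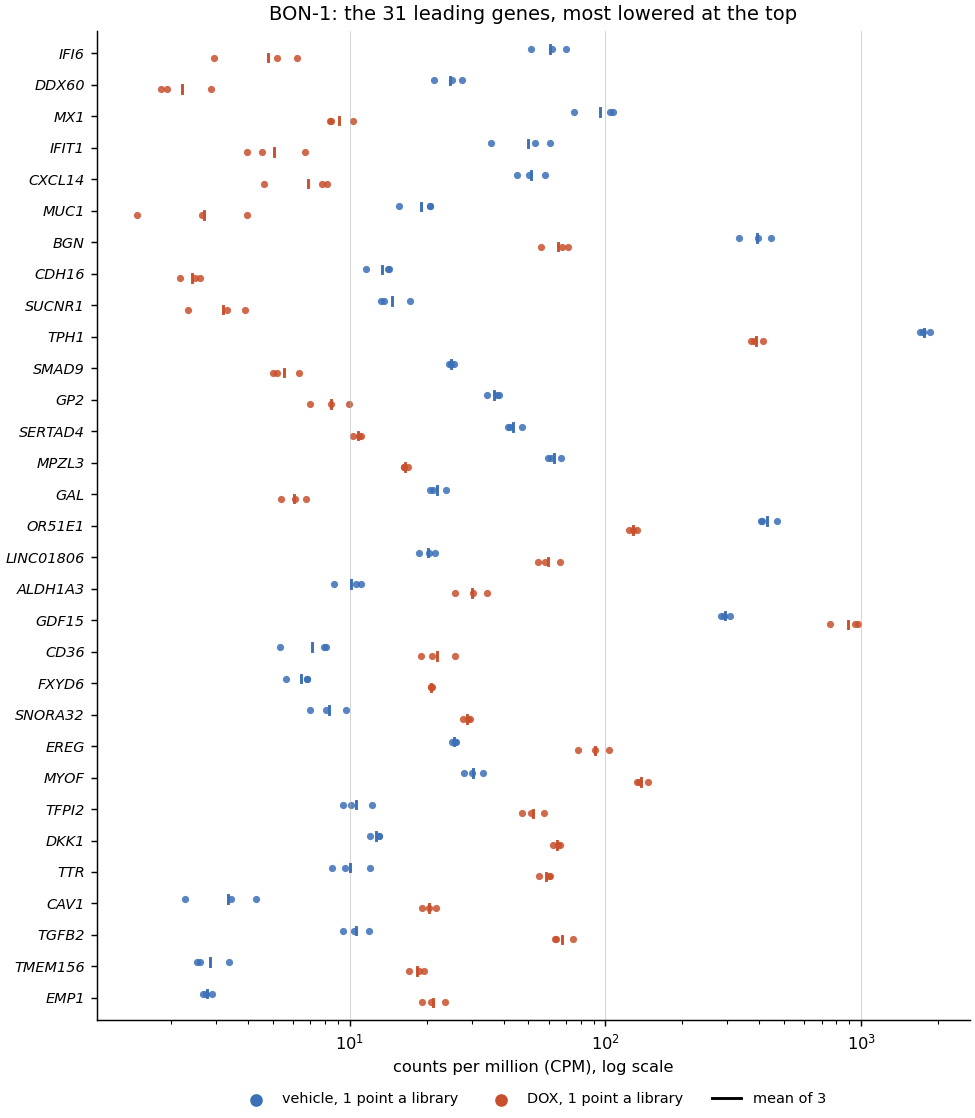
CPM on a log axis for the 31 leading genes, 1 point a library, with blue for the 3 vehicle and red for the 3 DOX libraries and a bar at each mean. Rows run from IFI6 at the top to EMP1 at the bottom, and the lack of overlap between the groups was part of the rule that chose the genes.

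The 4 most lowered of the leading genes were all interferon-stimulated. IFI6, a small interferon-induced membrane protein, was at 61.6, 70.0 and 51.2 CPM with vehicle and at 6.23, 5.20 and 2.95 CPM with DOX, 12.9-fold lower (log2 fold change -3.69 ± 0.16; adjusted p = 4.44e-16). MX1, an antiviral GTPase, was at 75.3, 107 and 104 CPM with vehicle and at 8.41, 10.3 and 8.45 CPM with DOX, 10.5-fold lower (-3.39 ± 0.13; adjusted p = 2.61e-17). In both genes the lowest vehicle library held several times the counts of the highest DOX library. A lack of overlap was part of the rule that chose these genes. DDX60, a helicase of the antiviral response, fell from 24.7 ± 3.02 to 2.21 ± 0.57 CPM (mean ± SD, n = 3 libraries; adjusted p = 1.79e-14), and IFIT1, which binds viral RNA, went from 35.9, 60.8 and 53.2 CPM to 4.56, 6.71 and 3.97 CPM (adjusted p = 2.69e-14).

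The promoters of these 4 genes are shown because the response element of the interferon pathway can be read in them. Each line gives the 250 bases before a start listed by RefSeq (GRCh38.p14), 5′ to 3′ on the strand of the gene, and capitals mark GAAA repeated after 2 bases of any kind, the core of an interferon-stimulated response element, or its reverse complement.
IFI6 (chr1:27672193-27672442, minus strand): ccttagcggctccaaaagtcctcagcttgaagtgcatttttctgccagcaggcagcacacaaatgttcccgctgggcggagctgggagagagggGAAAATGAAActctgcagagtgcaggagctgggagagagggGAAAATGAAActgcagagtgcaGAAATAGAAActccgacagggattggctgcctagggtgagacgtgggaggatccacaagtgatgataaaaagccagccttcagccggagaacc
IFIT1 (chr10:89392373-89392622, plus strand): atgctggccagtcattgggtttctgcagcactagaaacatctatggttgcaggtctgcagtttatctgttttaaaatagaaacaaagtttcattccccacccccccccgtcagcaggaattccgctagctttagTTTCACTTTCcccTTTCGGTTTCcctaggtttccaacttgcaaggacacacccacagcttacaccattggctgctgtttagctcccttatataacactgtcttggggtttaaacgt
DDX60 (chr4:168318753-168319002, minus strand): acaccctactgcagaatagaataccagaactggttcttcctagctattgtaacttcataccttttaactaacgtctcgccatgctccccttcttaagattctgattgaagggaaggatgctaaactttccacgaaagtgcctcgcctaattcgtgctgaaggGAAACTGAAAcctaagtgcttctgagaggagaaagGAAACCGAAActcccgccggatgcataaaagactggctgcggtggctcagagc
MX1 (chr21:41431800-41432049, plus strand): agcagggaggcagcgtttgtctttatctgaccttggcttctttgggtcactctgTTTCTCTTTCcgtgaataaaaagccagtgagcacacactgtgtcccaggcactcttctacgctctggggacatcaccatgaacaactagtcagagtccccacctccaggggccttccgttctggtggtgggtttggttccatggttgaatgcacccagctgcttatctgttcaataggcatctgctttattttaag
IFI6 held 3 matches, beginning 156, 115 and 93 bases before the start, IFIT1 held 2, beginning 116 and 103 bases before it, and DDX60 held 2, beginning 88 and 53 bases before it. For MX1 the table lists 3 starts, and the window printed is the one with a match, 196 bases before its start. The same motif, searched on both strands, was found in 1014 of the 27305 genes with a promoter in the table (3.71%). Of the 38 interferon response genes tested, 31 had a promoter there and 22 of them held the motif (71.0%), which makes 19 of 26 among the downregulated and 3 of 5 among those not called. The list was drawn up as genes of the interferon response, so its share describes the list and not the response to DOX. A match describes letters and is not a measured binding site.

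Of 42 interferon response genes, 38 were tested and 30 were downregulated (78.9%, against 18.3% of all genes), none was upregulated and 8 did not pass the test. Their median log2 fold change was -0.92, beside -0.01 for all genes, and 18 of them fell by more than 1 on the log2 scale. DESeq2 called 29 lower and none higher, and 28 were called lower in each of the 6 fits without 1 library. The list and its leading members were written with results of these data known, so the count is a description.

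The signal transducers of the pathway moved unequally. IRF9, the DNA-binding partner of STAT2, was at 85.8, 106 and 99.6 CPM with vehicle and at 35.4, 49.9 and 34.3 CPM with DOX (-1.28 ± 0.11; adjusted p = 5.50e-10). STAT2 stood at 54.8 ± 4.40 CPM with vehicle and 49.7 ± 5.01 CPM with DOX and did not pass (adjusted p = 0.278), and IRF1 was at 5.29 ± 0.32 and 5.30 ± 0.63 CPM (adjusted p = 0.982). The viral RNA sensors IFIH1 and DDX58 fell by 0.70 each on the log2 scale, the RNase L activators OAS1 and OAS3 by 1.15 and 0.80, and the ubiquitin-like ISG15 by 1.30. The genes of this pathway named beside the 4 leading ones were picked after their values were seen.

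MHC class I genes were downregulated alongside. HLA-B, a heavy chain that presents peptides to CD8 T cells, was at 306, 295 and 254 CPM with vehicle and at 111, 120 and 92.0 CPM with DOX, 2.65-fold lower (-1.40 ± 0.09; adjusted p = 1.59e-12). HLA-C fell by 1.11 on the log2 scale, and PSMB8, a catalytic subunit of the immunoproteasome, fell from 32.1 ± 3.66 to 15.3 ± 1.82 CPM. Of 17 genes of class I presentation tested, 14 were downregulated (82.4%), none was upregulated, and the median log2 fold change was -0.65. B2M, the invariant light chain, picked after its values were seen, was at 2733, 3686 and 3560 CPM with vehicle and at 3022, 2497 and 2884 CPM with DOX, groups that overlap, and did not pass (adjusted p = 0.0606, and 0.0499 with DESeq2). Class I heavy chains, the IFITM genes and the IFIT genes are families of similar sequence, and how reads shared between members were counted is not given in the sources used here.

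**Figure D3:**
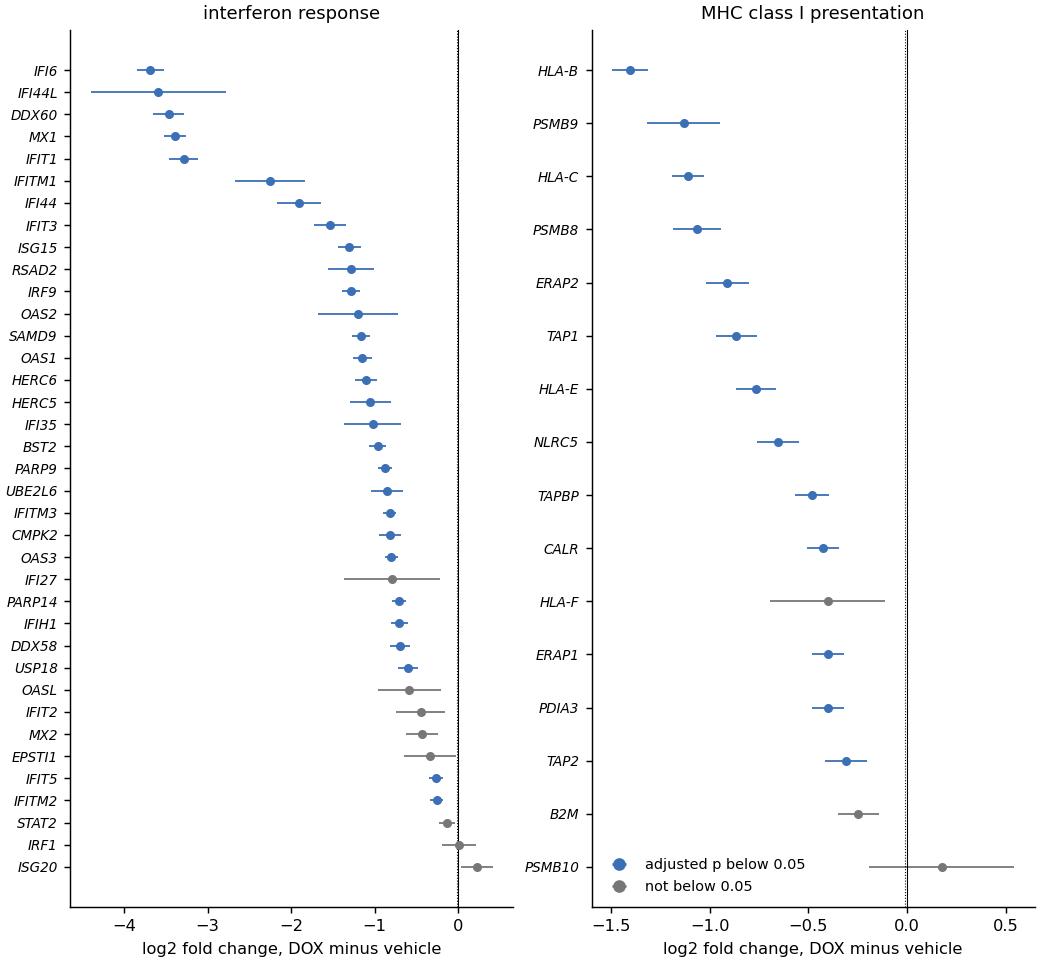
Log2 fold change, DOX minus vehicle, with its SE as a bar, for genes of the interferon response and of class I presentation. Blue marks an adjusted p below 0.05 and grey the rest; no member is called to the right of 0, and the dotted line at -0.01 is the median of all genes.

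Besides MUC1, the next 4 in order of fold change were a chemokine, a proteoglycan, a cadherin and a metabolite receptor. CXCL14, an epithelial chemokine, was at 58.0, 45.1 and 50.1 CPM with vehicle and at 4.62, 8.16 and 7.79 CPM with DOX, 7.36-fold lower (-2.88 ± 0.15; adjusted p = 1.15e-14). BGN, the matrix proteoglycan biglycan, was at 444, 333 and 394 CPM with vehicle and at 67.4, 71.4 and 56.1 CPM with DOX, 6.01-fold lower (-2.59 ± 0.10; adjusted p = 2.61e-17). For both genes the lack of overlap between the groups was part of the rule that chose them. CDH16, a cadherin of kidney and thyroid epithelium, fell by 2.45 and SUCNR1, the succinate receptor, by 2.21 on the log2 scale. SMAD9, a transducer of BMP signals, fell by 2.17, GP2, a glycoprotein of zymogen granules, by 2.12, SERTAD4 by 2.02 and MPZL3, an immunoglobulin-like membrane protein, by 1.92. OR51E1, an olfactory-type receptor found outside the nose, was among the more abundant of the leading genes, and fell from 429 ± 35.6 to 128 ± 4.84 CPM (-1.74 ± 0.08; adjusted p = 9.41e-16).

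RNA of both enzymes of serotonin synthesis was lower with DOX. TPH1, tryptophan hydroxylase and the rate-limiting enzyme of serotonin synthesis outside the brain, lies on chromosome 11 from 18017555 to 18046269. It was at 1857, 1699 and 1749 CPM with vehicle and at 372, 381 and 411 CPM with DOX, 4.56-fold lower (-2.19 ± 0.08; adjusted p = 2.61e-17). The groups did not overlap, which was part of the rule that chose TPH1 as a leading gene. DDC, the decarboxylase that makes serotonin from the product of TPH1, fell from 86.2 ± 4.65 to 48.6 ± 6.39 CPM (-0.83 ± 0.09; adjusted p = 6.48e-08). SLC18A1, the transporter that loads amines into granules, stood at 34.6 ± 4.14 and 36.3 ± 0.077 CPM (adjusted p = 0.659), and the degrading enzymes MAOA and MAOB did not pass either (adjusted p = 0.149 and 0.883). FEV, a transcription factor of serotonergic cells, was at 19.9, 20.5 and 19.6 CPM with vehicle and at 9.63, 13.6 and 8.09 CPM with DOX, 1.91-fold lower (adjusted p = 2.64e-05).

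**Figure D4:**
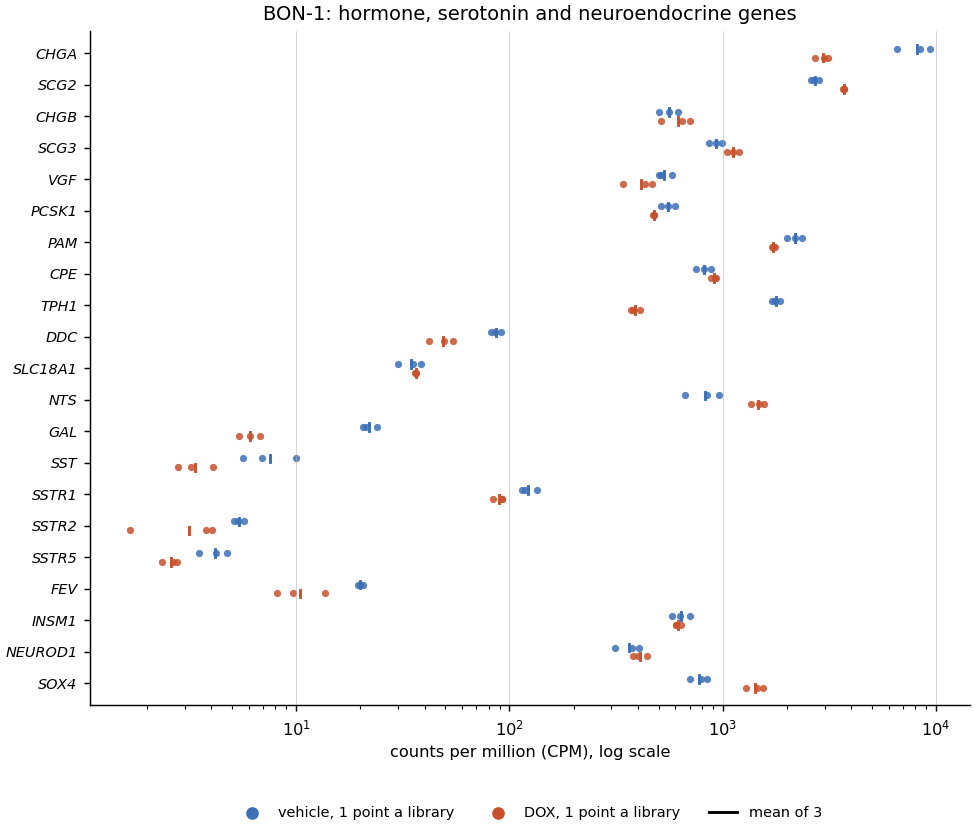
CPM on a log axis for genes of hormone storage, serotonin, peptide hormones, somatostatin receptors and endocrine transcription factors, 1 point a library, blue for vehicle and red for DOX, with a bar at each mean. CHGA, TPH1, DDC, GAL and SST lie to the left with DOX, SCG2, NTS and SOX4 lie to the right, and CHGB, INSM1 and NEUROD1 overlap between the groups.

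Genes of granule cargo moved in both directions. CHGA, chromogranin A, the granule protein used as a serum marker of these tumors, was at 9328, 6535 and 8449 CPM with vehicle and at 2973, 3130 and 2705 CPM with DOX, 2.76-fold lower (-1.46 ± 0.11; adjusted p = 2.45e-11). SCG2, secretogranin II, went the other way, from 2829, 2587 and 2677 CPM to 3680, 3689 and 3689 CPM (0.45 ± 0.08; adjusted p = 0.000126). CHGB, chromogranin B, was at 560 ± 54.3 and 618 ± 96.8 CPM and did not pass (adjusted p = 0.259), although it was higher without DOX replicate 3 (adjusted p = 0.0299). In TPM, a scale corrected for transcript length, CHGA ranked 17 to 30 among 25544 genes with vehicle and 64 to 76 with DOX, TPH1 fell from ranks 44 to 50 to ranks 218 to 263, and SCG2 ranked 41 to 49 and then 27 to 34.

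Of 11 genes of hormone storage and processing, 4 were lower and 3 higher, with a median of -0.11. The peptide-amidating enzyme PAM fell by 0.34, the granin VGF by 0.36 and the prohormone convertase PCSK1 by 0.23 on the log2 scale, while the granin SCG3 rose by 0.27 and PCSK1N, an inhibitor of PCSK1, rose by 0.92. PCSK1 and SCG3 were each lost when certain single libraries were left out. The summed level of these genes ran from 14332 to 18124 CPM with vehicle and from 11568 to 12196 CPM with DOX. Of 26 genes of regulated exocytosis tested, 5 were lower and 5 higher, of which 2 and 4 were called in each fit without 1 library. Each share was 19.2%, close to the 18.3% lower and 17.0% higher of all genes. SYT13 (-0.51), a synaptotagmin, and SNAP25 (-0.37), a SNARE protein, were on the lower side and UNC13A (0.85), a vesicle-priming protein, on the higher side.

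Peptide hormones also differed in direction. GAL, the neuropeptide galanin, was at 23.9, 21.2 and 20.6 CPM with vehicle and at 6.10, 6.76 and 5.39 CPM with DOX, 3.60-fold lower (-1.85 ± 0.15; adjusted p = 1.14e-10). SST, somatostatin, fell from 7.51 ± 2.21 to 3.36 ± 0.65 CPM (-1.16 ± 0.23; adjusted p = 0.000266). NTS, neurotensin, was at 669, 965 and 842 CPM with vehicle and at 1564, 1357 and 1471 CPM with DOX, 1.77-fold higher (0.83 ± 0.10; adjusted p = 2.36e-07). No vehicle library reached the lowest DOX library for NTS. Of 15 other peptide hormone genes listed, SST and NTS included, 4 had enough counts to be tested, and no untested one exceeded 0.564 CPM in any library. The somatostatin receptors SSTR1, SSTR2 and SSTR5, targets of somatostatin analog drugs, fell by 0.45, 0.75 and 0.69 on the log2 scale. Only SSTR1, at 123 ± 11.2 and 89.4 ± 5.03 CPM, was also called by DESeq2 and in all 6 fits without 1 library.

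Among 20 endocrine transcription factors tested, 7 were lower and 5 higher, with a median of -0.05. PDX1 (-0.75), FOXA1 (-0.57), GATA4 (-0.53), FOXA2 (-0.31) and NKX2-2 (-0.27), which act in pancreas development, were lower besides FEV. NKX2-2 was called in only 2 of the 6 fits without 1 library, and lost its call with all 12 libraries in a single fit (adjusted p = 0.151). SOX4 rose from 778 ± 67.4 to 1423 ± 130 CPM (0.87 ± 0.09; adjusted p = 9.93e-09), and ST18 (0.63), PROX1 (0.55), MYT1 (0.36) and SOX9 (0.31) were higher too. The neuroendocrine regulators INSM1 and NEUROD1 did not pass, with log2 fold changes of -0.05 and 0.17.

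Several of the upregulated leading genes encode secreted ligands. TGFB2, a ligand of the TGF-β receptors, was at 11.9, 10.4 and 9.45 CPM with vehicle and at 64.2, 63.8 and 74.9 CPM with DOX, 6.36-fold higher (2.67 ± 0.11; adjusted p = 1.23e-16). DKK1, a secreted WNT antagonist, was at 12.7 ± 0.57 CPM with vehicle and at 64.8 ± 2.13 CPM with DOX, 5.12-fold higher (2.36 ± 0.10; adjusted p = 2.03e-16). In both, every DOX library held several times the level of every vehicle library. Both were chosen by a rule that required no overlap. EREG, a ligand of the EGF receptor, rose from 25.6 ± 0.43 to 90.7 ± 12.6 CPM (1.82 ± 0.10; adjusted p = 3.22e-14), and its relative AREG from 6.85 ± 1.91 to 19.9 ± 3.40 CPM (1.53 ± 0.17; adjusted p = 8.36e-08). GDF15, a stress-induced member of the TGF-β superfamily, was at 308, 291 and 284 CPM with vehicle and at 942, 971 and 755 CPM with DOX, 3.02-fold higher (SE 0.09 on the log2 scale; adjusted p = 6.44e-14).

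Membrane and carrier proteins made up most of the other upregulated leading genes. EMP1, an epithelial membrane protein, was at 2.66, 2.75 and 2.89 CPM with vehicle and at 19.1, 23.6 and 20.7 CPM with DOX, 7.65-fold higher (2.94 ± 0.17; adjusted p = 1.08e-13). CAV1, the coat protein of caveolae, rose by 2.59, MYOF, a ferlin of membrane repair, by 2.18 and CD36, a fatty acid receptor, by 1.62 on the log2 scale. TTR, the thyroid hormone carrier transthyretin, rose from 10.1 ± 1.80 to 58.7 ± 3.12 CPM, and TFPI2, a serine protease inhibitor, from 10.6 ± 1.47 to 52.0 ± 5.01 CPM. TMEM156 (2.70), FXYD6 (1.70), a regulator of the sodium pump, ALDH1A3 (1.57), which makes retinoic acid, and the long non-coding RNA LINC01806 (1.56) were also higher. SNORA32, a small nucleolar RNA, rose by 1.81, but it lies within its host gene TAF1D on the same strand, and TAF1D, named here after its value was seen, rose as well, by 0.70. Another annotated gene overlaps MUC1, IFI6 and TPH1 on the same strand, MX1, CXCL14, SERTAD4, DKK1, TFPI2 and LINC01806 on the opposite strand, and TGFB2, FXYD6 and ALDH1A3 on both, and whether the counting used strand is not given in the sources used here.

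SLITRK5 and SEMA5A fell outside the rule for leading genes and were picked after their values were seen. SLITRK5, a neuronal membrane protein, had a mean level just under the minimum and was at 12.9, 12.6 and 15.3 CPM with vehicle and at 0.58, 0.47 and 0.25 CPM with DOX (-4.98 ± 0.27; adjusted p = 3.04e-14). SEMA5A, a semaphorin of axon guidance, had 0 reads in each vehicle library and 22, 16 and 45 reads in the DOX libraries (adjusted p = 2.41e-06).

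In the TGF-β and BMP list, 11 of 30 tested members were higher (36.7%, against 17.0% of all genes), 7 were lower and the median was 0.01. Beside TGFB2, the receptor TGFBR2 rose from 206 ± 6.90 to 416 ± 23.3 CPM (1.01 ± 0.08; adjusted p = 2.75e-11), and LTBP1, which anchors latent TGF-β in the matrix, rose by 1.23 on the log2 scale. The ligand TGFB1 went the other way (-0.85), as did the TGF-β-induced TGFBI (-0.55) and the BMP targets ID1 (-0.60) and ID3 (-0.63).

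Among 25 AP-1 and immediate early genes tested, 9 were higher and 3 lower, and the median was 0.14. DUSP5, a phosphatase induced by ERK signaling, was at 216, 203 and 195 CPM with vehicle and at 429, 451 and 424 CPM with DOX, 2.12-fold higher (1.09 ± 0.08; adjusted p = 5.64e-12), and DUSP4 rose by 0.71, KLF6 by 0.53 and NR4A2 by 0.77 on the log2 scale. JUND (-0.38), IER2 (-0.41) and SPRY2 (-0.30) were lower, IER2 not in each fit that left out 1 library. Of 21 NF-κB targets tested, 5 were higher and 2 lower, among them the chemokines CXCL8, which rose from 144 ± 23.0 to 266 ± 15.2 CPM (0.89 ± 0.09; adjusted p = 1.22e-08), and CXCL1 (0.68). In the receptor tyrosine kinase list, 11 of 40 tested members were lower and 11 higher. Each share was 27.5%, against 18.3% lower and 17.0% higher of all genes. The receptors RET (-0.90), KIT (-1.23) and TYRO3 (-1.02) and the ligand PDGFA (-1.37) were lower, and EPHA2 (0.54) and the ligand NRG4 (0.56) were higher besides EREG and AREG.

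Matrix, keratin and state genes moved by member. Of 30 matrix and integrin genes tested, 11 were lower and 10 higher: the laminin LAMA3 (1.28), the thrombospondin THBS1 (1.04), ITGB1 (0.47) and ITGA6 (0.45) were higher, and LAMA5 (-0.85), NID1 (-0.92), ITGA3 (-0.85) and ITGA1 (-0.70) were lower. The simple epithelial keratins KRT19 (0.79), KRT8 (0.62) and KRT18 (0.58) were higher, whereas KRT7 (-0.53) and the claudin CLDN3 (-0.98) were lower. Of 18 tested genes of epithelial and mesenchymal state, 6 were higher and none lower, with a median of 0.05. They included the matricellular CTGF, at 42.9, 47.8 and 37.4 CPM with vehicle and at 122, 125 and 113 CPM with DOX (1.49 ± 0.09; adjusted p = 3.59e-13), the mesenchymal regulator SNAI2 (0.67) and the epithelial splicing factor ESRP1 (0.40), the last 2 known for opposite states. CDH1 did not pass at 436 ± 47.5 and 401 ± 13.8 CPM (adjusted p = 0.256). With library size scaling 4 of the 18 were higher.

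The WNT feedback list had 8 of 18 tested members lower and 4 higher, of which 3 and 2 were called in each fit without 1 library, and 2 were higher with library size scaling. The feedback inhibitor NKD1 (-1.08) and the WNT deacylase NOTUM (-1.42) were lower at a few CPM, CTNNB1, β-catenin, fell from 191 ± 11.4 to 128 ± 4.21 CPM (-0.58 ± 0.08; adjusted p = 8.12e-07), and DKK1 and LGR5 (0.73) were higher. Of 32 NOTCH pathway genes tested, 9 were lower, 4 of them in each fit without 1 library, and 4 were higher. The shares were 28.1% lower and 12.5% higher, against 18.3% and 17.0% of all genes. The ligand JAG1 was at 452, 482 and 450 CPM with vehicle and at 868, 883 and 879 CPM with DOX, 1.90-fold higher (0.93 ± 0.08; adjusted p = 2.31e-10), while the ligands JAG2 (-0.82) and DLL3 (-1.02) were lower.

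Glycolytic genes were lower more often than higher, 10 against 3 of 24 tested. PGAM1, phosphoglycerate mutase, was at 209, 203 and 197 CPM with vehicle and at 71.8, 67.6 and 64.2 CPM with DOX, 2.99-fold lower (-1.58 ± 0.08; adjusted p = 5.10e-15). TPI1 fell by 0.59 and the lactate transporter SLC16A1 by 0.47 on the log2 scale. HK2, which starts the pathway, and the glucose transporter SLC2A1 went the other way, HK2 from 155, 134 and 137 CPM to 241, 265 and 240 CPM (0.81 ± 0.08; adjusted p = 4.85e-09), and SLC2A1 rose by 0.45.

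All called cholesterol genes were downregulated, 14 of 25 tested with a median of -0.28, and 8 of them were called in all 6 fits without 1 library. FDPS, farnesyl diphosphate synthase, was at 86.6, 81.4 and 85.1 CPM with vehicle and at 46.3, 47.0 and 37.9 CPM with DOX (-0.95 ± 0.09; adjusted p = 4.06e-09), and HSD17B7 fell by 0.83, HMGCS1 by 0.45 and FDFT1, squalene synthase, by 0.41 on the log2 scale. Of 17 genes of fatty acid synthesis and desaturation tested, 6 were lower and 2 higher, led by the desaturase FADS2, which fell from 49.2 ± 6.13 to 19.5 ± 1.99 CPM (-1.33 ± 0.11; adjusted p = 2.77e-10), and by ACSL3 (0.69) on the higher side.

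RNA levels of some genes of amino acid transport and of tRNA charging changed. All 8 called genes of the 20 cytosolic aminoacyl-tRNA synthetases were lower, 4 of them in each fit without 1 library. WARS, the tryptophanyl-tRNA synthetase, which interferon is known to induce, was at 122, 110 and 112 CPM with vehicle and at 41.3, 45.9 and 40.3 CPM with DOX, 2.70-fold lower (-1.43 ± 0.09; adjusted p = 2.99e-13), and DARS, for aspartate, fell by 1.26. The arginine and lysine transporter SLC7A2 fell from 95.3 ± 9.73 to 40.3 ± 1.74 CPM (-1.24 ± 0.09; adjusted p = 1.70e-11) and the glutamine transporter SLC38A3 by 1.16. The cystine transporter SLC7A11, from 328, 307 and 308 CPM to 529, 540 and 599 CPM, and the neutral amino acid transporter SLC38A2 each rose by 0.82. In all, 7 of 16 transporters tested were lower and 4 higher. Of 20 genes of serine and one-carbon metabolism, 6 were lower and 2 higher, with PHGDH, which starts serine synthesis, at -1.17 and MTHFD1 of the folate cycle at -0.68. The TCA cycle list had 5 lower (16.1%) and 7 higher (22.6%) of 31 tested, near the 18.3% and 17.0% of all genes. With library size scaling this balance turned to 7 lower and 4 higher. Its lowest member was OGDHL, a dehydrogenase subunit, at -0.52. In each fit without 1 library 2 of the TCA cycle genes were called lower and 2 higher.

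Of 45 mitosis genes tested, 27 were lower and 1 was higher, CENPE (0.60), with a median of -0.30. CDC20, an activator of the anaphase-promoting complex, fell from 78.6 ± 1.10 to 48.3 ± 6.47 CPM (-0.70 ± 0.09; adjusted p = 9.89e-07), PLK1 by 0.64 and the separase ESPL1 by 0.65. No member fell by more than 1 on the log2 scale. Among 20 genes of G1 cyclins, kinases and their inhibitors, 3 were lower and 3 higher (1 higher with library size scaling). Of 18 tubulin genes tested, 9 were lower and 2 higher with a median of -0.34, and the most abundant by counts, TUBA1B, was at 1296 ± 46.7 and 853 ± 26.2 CPM (-0.60 ± 0.08; adjusted p = 9.02e-07). Tubulin genes are close paralogs that can share reads.

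Of 38 DNA replication genes 16 were lower, 10 of them in each fit without 1 library, and none was higher (1 with DESeq2), among them the thymidine kinase TK1 (-0.59), the polymerase subunit POLA1 (-0.45) and the helicase subunit MCM2 (-0.44), with a median of -0.22.

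Genes of membrane excitability and calcium binding were also split. Of 29 ion channel genes tested, 7 were lower (24.1%) and 4 higher (13.8%), near the 18.3% and 17.0% of all genes. CACNA2D2, an accessory subunit of calcium channels, was at 22.3, 22.8 and 25.4 CPM with vehicle and at 7.25, 8.01 and 5.75 CPM with DOX (-1.75 ± 0.15; adjusted p = 2.98e-10), the T-type calcium channel CACNA1G fell by 1.44 and the potassium channel KCNK3 by 1.37 on the log2 scale, whereas the sodium channels SCN9A (1.61) and SCN3A (0.83) were higher. Among 20 S100 and annexin genes 5 were lower and 6 higher (3 higher with library size scaling, 2 in each fit without 1 library), and the membrane-binding ANXA2 rose from 158 ± 4.95 to 299 ± 14.8 CPM (0.93 ± 0.08; adjusted p = 1.38e-10). Besides MUC1, the mucins MUC3A (-1.14) and MUC5AC (-1.11) and the mucus protein FCGBP (-1.95) were lower at low levels, and MUC13 (0.29) was the 1 higher member of 12 trefoil, mucin and goblet genes tested.

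Chaperones were lower more often than higher. Of 21 heat shock genes tested, 10 were lower and 1 higher, and of 26 genes of folding in the endoplasmic reticulum 11 were lower and 2 higher (14 and 0 with library size scaling). HSPA13 fell from 159 ± 12.7 to 79.2 ± 5.77 CPM (-1.01 ± 0.08; adjusted p = 1.65e-10), PDIA4 by 0.59 and HYOU1 by 0.52 on the log2 scale. Of 37 lysosome and autophagy genes 12 were lower, 6 of them in each fit without 1 library, such as MAP1LC3B (-0.73) and the glucosidase GAA (-0.77), and 2 were higher, among them the autophagy receptor SQSTM1, which rose from 304 ± 20.1 to 565 ± 30.7 CPM (0.89 ± 0.08; adjusted p = 6.70e-10). Stress lists with mixed directions were the NRF2 and pentose phosphate genes (6 lower and 8 higher of 25, with AKR1B10 at 1.06 and ABCC2 at 0.90), the p53 targets (5 and 5 of 23) and the ATF4 response (7 and 4 of 26). For the p53 targets each share was 21.7%, near the shares of all genes, 18.3% lower and 17.0% higher. The ATF4 response had 26.9% lower and 15.4% higher, and the NRF2 and pentose phosphate list 24.0% and 32.0%. Of 20 hypoxia genes tested, 6 were higher, led by ADM (1.05), and 2 were lower, with CA9 at -0.73.

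Ribosomal and mitochondrial genes were lower more often than higher, by small median changes. Of 78 cytosolic ribosomal protein genes 24 were lower (30.8%, against 18.3% of all genes) and 5 higher (6.41%, against 17.0%), with a median of -0.14. Library size scaling gave 35 and 4. Of 75 mitochondrial ribosome genes 22 were lower (29.3%), 10 of them in each fit without 1 library, and 8 higher (13 and 7 with DESeq2). Of 72 nuclear genes of the respiratory chain 21 were lower (29.2%) and 8 higher, and 31 and 6 with library size scaling. RPL36 (-1.05), MRPL17 (-1.02) and UQCRFS1 (-1.10), the Rieske protein, were the members that fell by more than 1. Many ribosomal protein genes have processed pseudogenes that can share their reads.

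**Figure D5:**
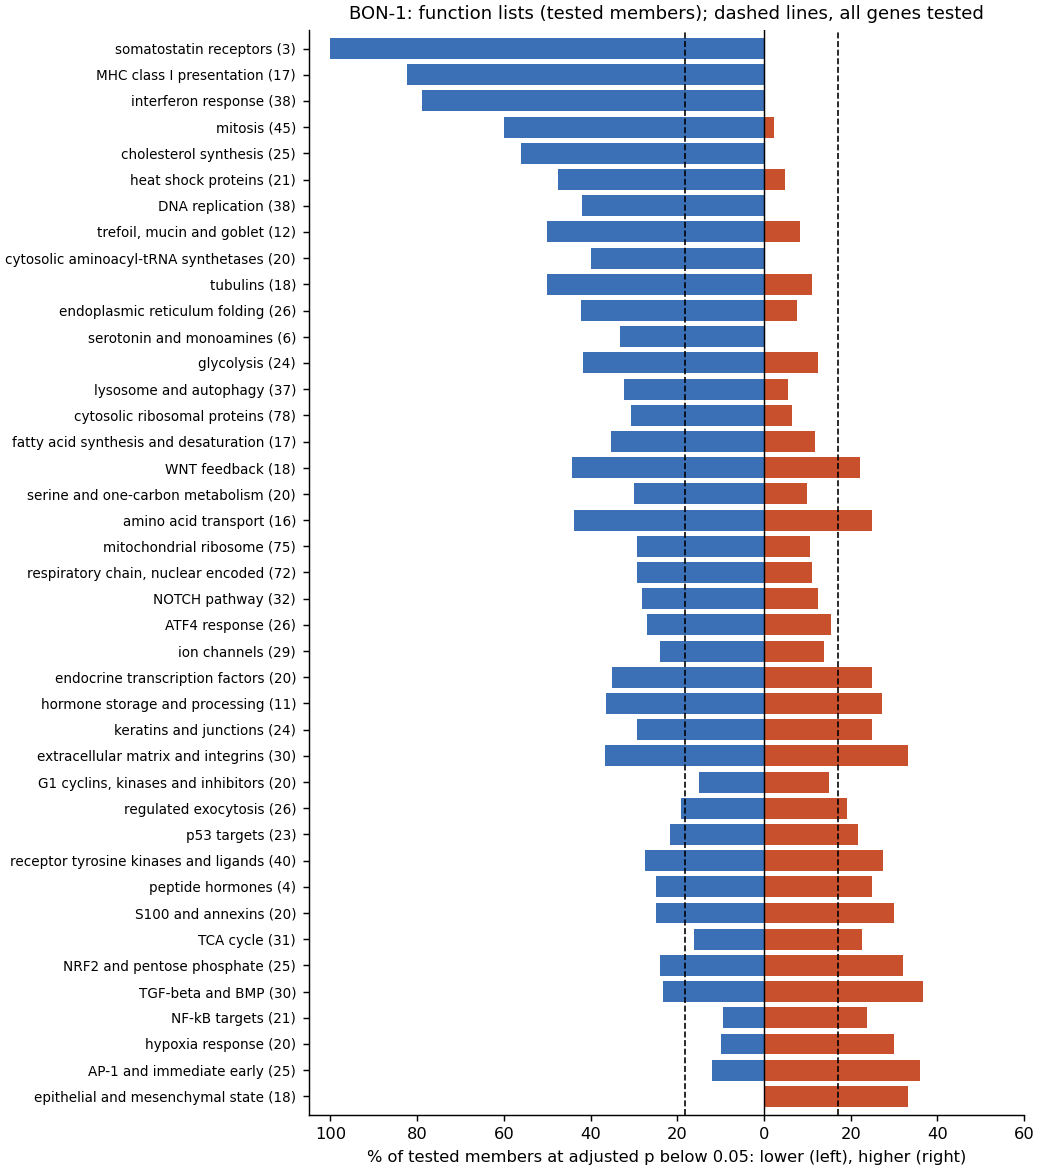
Percent of the tested members of 41 function lists that were lower (blue, to the left) or higher (red, to the right) with DOX at an adjusted p below 0.05, with the number tested in parentheses; the dashed lines are the shares of all genes, 18.3% lower and 17.0% higher. MHC class I presentation and the interferon response reach furthest left among lists with more than 3 tested members, and the list of epithelial and mesenchymal state has no lower member.

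Markers of other cell types were looked at in the same libraries. Lipase PNLIP and amylase AMY2A of acinar cells, THY1 and POSTN of fibroblasts and CD3D, MS4A1 and NKG7 of leukocytes had 0 reads in all 6 libraries. Some genes on these lists were expressed: of 5 acinar markers tested 3 were lower and 1 higher, and their sum ran from 797 to 910 CPM with vehicle and from 519 to 568 CPM with DOX, nearly all from PRSS2, a trypsinogen with close paralogs. Of 5 duct markers tested 3 were higher and 1 lower, with a sum of 472 to 535 CPM with vehicle and 591 to 718 CPM with DOX. The sum over 3 hepatocyte markers tested was 2002 to 2228 CPM with vehicle and 2559 to 2972 CPM with DOX, mostly from APOB. CD68, a lysosomal protein abundant in macrophages, was at 25.3 ± 1.41 and 50.6 ± 2.04 CPM while PTPRC did not exceed 0.25 CPM in any library. The sums over 3 fibroblast and 3 endothelial markers tested stayed at or below 17.4 and 41.3 CPM. The part of these genes in the other results was not tested.

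The difference between BON-1 and QGP-1 in the response to DOX was tested gene by gene in all 12 libraries. In 1315 of 16598 genes (7.92%) the response was more negative in BON-1 and in 1461 (8.80%) it was more positive, and with library size scaling the counts were 1823 and 1123. MUC1 itself did not pass this test (BON-1 minus QGP-1 0.13 ± 0.34; adjusted p = 0.854). The leading genes and the called list members were chosen by their BON-1 values, which also enter this difference, so the counts that follow are a description. Among the 31 leading genes 21 differed, 11 lower and 10 higher ones, and 6 of the 31 had too few counts in QGP-1 to be tested in that line alone. Of the 30 interferon response genes downregulated in BON-1, 16 had a more negative response there than in QGP-1, and 10 of the 14 class I presentation genes did. Of the 38 interferon response genes tested in BON-1, 25 had enough counts to be tested in QGP-1 alone. CHGA (-1.60 ± 0.15; adjusted p = 4.82e-08), DDC (-1.73 ± 0.13; adjusted p = 1.25e-09) and SST (-2.62 ± 0.23; adjusted p = 1.51e-08) also responded more negatively in BON-1, whereas the differences for NTS (-0.18 ± 0.16) and SCG2 (0.26 ± 0.12) did not pass.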

How the data were processed

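Per the labels and the study's methods, stranded mRNA libraries were aligned with STAR to GRCh38 by the authors, who deposited raw read counts per gene for all 12 libraries and TPM values for BON-1. The counting program and its strand setting are not given in the sources used here. Counts were the basis of every test, and TPM, in which 3 small RNA genes take much of each total, served only for ranks. The 14625 genes that passed filterByExpr were fitted with edgeR 4.0.16 (TMM, glmQLFit and glmQLFTest, R 4.3.3), with Benjamini-Hochberg adjustment over all of them and a threshold of 0.05. Every adjusted p without another tool's name comes from edgeR. DESeq2 1.42.0, other scalings, filters, a replicate block and leaving out each library were alternatives. The response was compared with that of QGP-1 by an interaction term in all 12 libraries. On simulated counts the BON-1 fit recovered 93 of 100 genes changed 2-fold and 42 of 100 changed 1.5-fold, with 5 false calls among 140. For the interaction the same were 57 and 7 of 100. The spread of the simulated counts was a fixed value, not taken from these libraries, so these counts do not measure the recovery in the real fits. A gene that did not pass the interaction test may still differ.

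Named genes were MUC1, the 15 largest fold changes and 5 lowest p in each direction under the level and overlap rule of the report, up to 4 members per direction of each function list by p, and every member of the neuroendocrine lists. Genes named outside the rule are said to be so. The comparison, the lists and this rule were chosen with earlier results of these data known. The libraries were cultured in triplicate per the labels, and libraries of a group differed by more than counting error. Replicate numbers did not pair the libraries. Coordinates and promoters come from RefSeq (GRCh38.p14). No column of the deposited tables was left without a sample. A few genes of the lists are counted but not reported by name here.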

Additional observations from a re-analysis of the deposited data

Results flagged for a closer look

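Among the 31 leading genes, 21 responded differently in BON-1 and QGP-1 by the interaction term (edgeR quasi-likelihood test, adjusted p below 0.05 over 16598 genes), and each value here is the log2 fold change in BON-1 minus that in QGP-1. The genes were chosen by their BON-1 values, which also enter the difference. The interferon-stimulated IFI6, MX1 and DDX60 were more negative in BON-1, by -4.62, -3.0 and -2.46. In QGP-1 alone these were at 0.909 ± 0.62, -0.393 ± 0.51 and -0.988 ± 0.485 (SE) and did not pass (adjusted p = 0.281, 0.59 and 0.131, edgeR). Those SE were wider than the 0.16, 0.13 and 0.18 in BON-1, so a change in QGP-1 is not excluded. The difference for IFIT1 (-1.17 ± 1.49) did not pass (adjusted p = 0.651), and IFIT1 had too few counts in QGP-1 to be tested there. Also more negative in BON-1 were the chemokine CXCL14 (-3.33), SMAD9 (-2.44), the succinate receptor SUCNR1 (-2.0), SERTAD4 (-1.52) and MPZL3 (-0.61). TPH1, for serotonin, differed by -1.78 and GAL, galanin, by -1.76. CDH16 differed by -3.58, but it had too few counts in QGP-1 to be tested there.

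Genes upregulated in BON-1 differed the other way. The secreted ligands DKK1, GDF15 and TGFB2 differed by 3.84, 2.42 and 2.08, and the membrane proteins TMEM156, FXYD6, EMP1, CD36 and MYOF by 3.25, 2.71, 2.57, 1.55 and 0.91. SNORA32 differed by 2.25 and LINC01806 by 1.46. In QGP-1 alone 5 of these were negative on the log2 scale, opposite to BON-1: FXYD6 at -1.0 (adjusted p = 4.86e-05), GDF15 at -0.81 (1.33e-05), TMEM156 at -0.54 (0.0133) and SNORA32 at -0.43 (0.0166) passed the test there, and DKK1 at -1.51 did not (0.114).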

How the results depend on the processing

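The 2677 lower and 2488 higher genes became 2367 and 2441 with DESeq2, 3149 and 2030 with library size scaling, 2656 and 2408 with a replicate block, and from 2194 to 2577 and from 1908 to 2196 when 1 library was left out. Requiring a log2 fold change beyond 1 left 447 and 272. The replicate numbers did not pair the libraries (correlations of same-numbered deviations from -0.108 to 0.199), so the block result is given only here. Of the differences between the lines, 1592 were more negative and 1591 more positive in BON-1 with DESeq2. No called gene named in the text reversed under these alternatives. SSTR2, SSTR5, NKX2-2, SYP, PCSK1, SCG3, MYT1, OGDHL, MUC5AC and IER2 lost their calls in 1 or more of them. Uncalled genes changed sign near 0: IRF1 gave -0.039 with library size, -0.008 with a minimum of 10 counts and -0.012 without the filter, and from -0.106 to 0.048 over single libraries left out, INSM1 from -0.122 to 0.022, MAOB from -0.111 to 0.214 and SLC18A1 from -0.032 to 0.146. The causes were not tested. On simulated counts, whose spread was fixed and not taken from these libraries, a 1.5-fold change was often missed. In these libraries 1258 lower and 1429 higher genes were called at less than 0.5 on the log2 scale. An uncalled gene is still not shown to be unaffected.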
